A study of Mus musculus with 96 samples.

Results

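The antioxidant-high and antioxidant-low sister pairs are 12 and 12 of the 48 pairs of daughter cells of horizontal basal cells (HBCs), which makes 24 and 24 of the 96 cells in the series. Both groups were selected on measured values. CPM, the counts of a gene scaled to the total on all genes of its cell, was put on the scale log2(CPM + 1), and the score of a pair was the mean over both sisters of 5 genes, Gstm1, Gstp1, Slc7a11, Cbr2 and Blvrb. The 12 pairs of highest score are called antioxidant-high, the 12 of lowest score antioxidant-low, and the 24 pairs between them are used only where stated. The differences of these 5 genes between the groups were therefore fixed by the choice, and all other differences between the groups describe pairs that were chosen by expression and not by treatment.

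HBCs are the reserve stem cells of the olfactory epithelium (OE). All cells of both groups were wild type and came from mice of 6 to 8 weeks whose OE was dissected 2 days after methimazole, a drug that damages the OE. The cells were grown ex vivo on coated dishes, the 2 daughters of a division were picked singly with their pairing kept, and ERCC spike-in RNA was added to each lysate before poly(A) RNA was captured and sequenced by G&T-seq. No label gives the mouse, culture or day of a cell, so all 96 cells count as 1 sample of 1 condition, and no test was made and no p-value is given.

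As background, the 5 genes belong to a defence against reactive and inhaled chemicals that epithelia of the nose express strongly. The transcription factor NRF2, encoded by Nfe2l2, is held back by KEAP1 and released by reactive molecules, and it binds antioxidant response elements near genes that make glutathione, join it to toxic compounds, reduce quinones and carbonyls and supply NADPH. Glutathione is made from cysteine, which the transporter Slc7a11 brings in as cystine, and glutathione transferases such as Gstm1 and Gstp1 attach it to their substrates.

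The core of the antioxidant response element, TGACNNNGC on either strand, was searched in RefSeq promoter windows of GRCm38.p6 that run from 250 bases before to 50 bases after a start site. It was found in 12.4% of all 32851 windows, and for 14% of all 27025 gene symbols when any window of a gene counted. Counted in that way, it was found for 19 of the 79 genes matched among the 89 tested genes of a wider antioxidant list (24.1%). Of the matched genes of that list less than 2-fold higher in antioxidant-high pairs, 12 of 54 (22.2%) had it, beside 28% of those at least 2-fold higher. These were 7 of 25 matched genes, namely Gclm, Gsta3, Gstm5, Me1, Mgst1, Srxn1 and Txnrd1. None of the 5 genes of the score had it. Over all genes tested, 16.3% of those at least 2-fold higher and 15.6% of those at least 2-fold lower had it, beside 16.9% of all that were matched. A match is not a binding site, and its absence says only that the letters are not in this window. The windows of 3 of the 7 genes are shown because each of these genes makes or uses a different arm of the defence. Gclm (chr3:122245307-122245606, plus strand) encodes the modifier subunit of the enzyme that starts glutathione synthesis, Gsta3 (chr1:21240335-21240634, plus strand) a glutathione transferase, and Txnrd1 (chr10:82858956-82859255, plus strand) thioredoxin reductase. Capitals mark the match, which begins 134, 121 and 92 bases before the start site of the window. For Txnrd1 this start site lies inside the gene, which begins at base 82833951.
Gclm: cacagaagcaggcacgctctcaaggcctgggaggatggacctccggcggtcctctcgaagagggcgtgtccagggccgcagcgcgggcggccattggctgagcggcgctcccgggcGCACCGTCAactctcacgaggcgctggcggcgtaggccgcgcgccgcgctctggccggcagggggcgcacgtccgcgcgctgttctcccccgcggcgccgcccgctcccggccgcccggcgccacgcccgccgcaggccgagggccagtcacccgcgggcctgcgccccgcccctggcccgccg
Gsta3: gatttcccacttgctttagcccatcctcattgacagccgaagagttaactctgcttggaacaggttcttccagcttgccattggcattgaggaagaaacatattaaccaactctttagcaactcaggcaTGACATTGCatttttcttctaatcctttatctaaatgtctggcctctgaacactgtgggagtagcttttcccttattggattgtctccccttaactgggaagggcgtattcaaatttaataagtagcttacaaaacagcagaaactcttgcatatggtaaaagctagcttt
Txnrd1: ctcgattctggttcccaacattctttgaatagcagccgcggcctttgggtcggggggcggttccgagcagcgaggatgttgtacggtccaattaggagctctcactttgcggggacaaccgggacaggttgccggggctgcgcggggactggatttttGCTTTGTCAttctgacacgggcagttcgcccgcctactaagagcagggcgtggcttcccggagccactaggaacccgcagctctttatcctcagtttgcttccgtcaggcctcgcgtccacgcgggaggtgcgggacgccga

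The score of antioxidant-high pairs had a lowest value of 9.81, a median of 10.15 and a maximum of 10.73. In antioxidant-low pairs these were 7.67, 8.23 and 8.87. The edges of the groups were set by rank. The last pair inside the high group, at 9.81, was followed by a pair at 9.71, and the last pair inside the low group and the first outside it differed only in the fourth digit (8.8718 and 8.87252). Sisters carried similar scores. The intraclass correlation of the score over the 48 pairs was 0.809. The lowest cell of the high pairs was at 9.80 and the highest cell of the low pairs at 8.95, a gap that the choice of pairs by the mean of these cells largely sets.

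**Figure D1:**
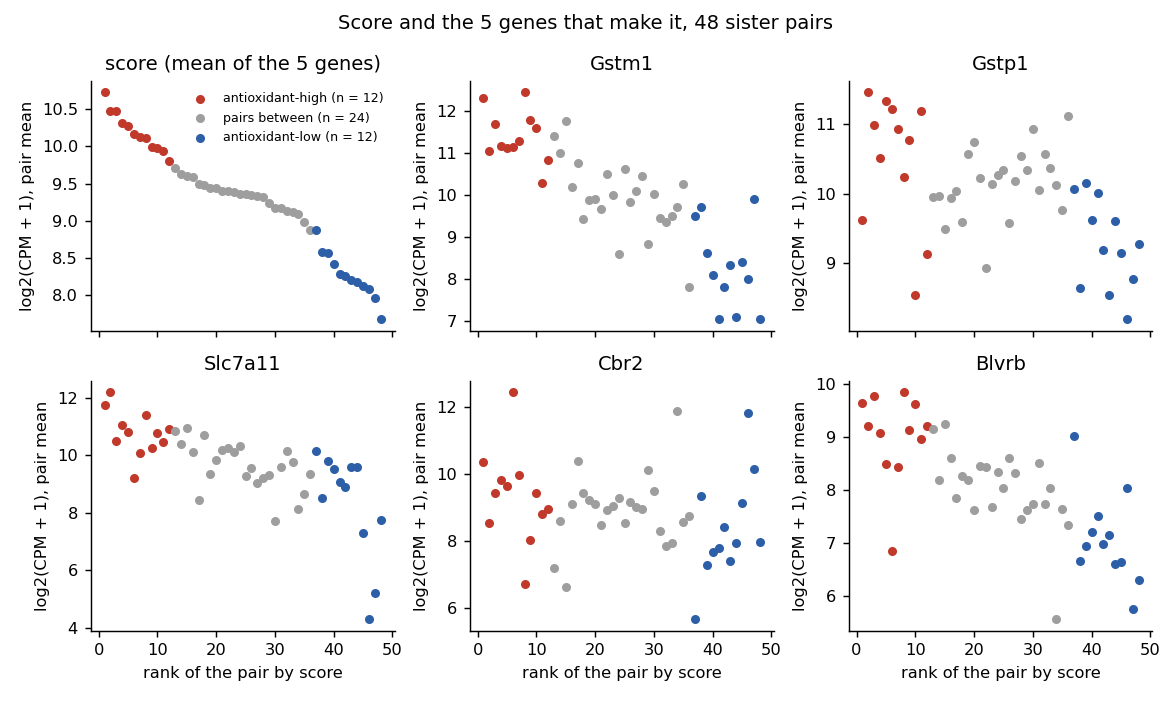
Pair means of log2(CPM + 1) for the score and its 5 genes (y axis) against the rank of the pair by score (x axis), with 12 antioxidant-high pairs in red, 24 pairs between in grey and 12 antioxidant-low pairs in blue. Gstm1 separates the groups, with 10.27 to 12.43 in high and 7.03 to 9.89 in low pairs, and Cbr2 spreads from 6.70 to 12.45 in high and from 5.64 to 11.84 in low pairs.

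The 5 genes did not contribute alike. Gstm1 (chromosome 3, 108012255 to 108017973, minus strand), a mu-class glutathione transferase, had a lowest, median and highest value of 10.27, 11.22 and 12.43 in high pairs and of 7.03, 8.20 and 9.89 in low pairs, a difference of means of 3.10. Every high pair lay above every low pair. Slc7a11, the cystine carrier, had 9.22, 10.78 and 12.18 in high and 4.29, 8.97 and 10.15 in low pairs, a difference of 2.47. Blvrb, biliverdin reductase B, had 6.85, 9.17 and 9.84 in high and 5.75, 6.96 and 9.02 in low pairs, a difference of 1.95. In both genes the groups overlapped, but no low pair reached the median of the high pairs. Gstp1, a pi-class transferase that shares much sequence with its neighbour Gstp2, had 8.53, 10.85 and 11.46 against 8.18, 9.23 and 10.16, a difference of 1.23.

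Cbr2, a carbonyl reductase known from lung and nasal epithelium, stood apart from the other 4. It had 6.70, 9.44 and 12.45 in high pairs and 5.64, 7.95 and 11.84 in low pairs, and its difference of 0.96 was under 2-fold. The groups overlapped over most of their range. Over the 48 pairs the Pearson r of Cbr2 with Slc7a11 was -0.38 and with Blvrb -0.24, whereas Blvrb had an r of 0.67 with Slc7a11 and 0.66 with Gstm1. With Cbr2 left out of the score, 10 of the 12 high and 11 of the 12 low pairs were the same, and the difference of Cbr2 was then -0.19.

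Across all genes, 14463 passed a minimum of 10 counts in 10% of the cells. Of these, 739 (5.11%) were at least 2-fold higher in antioxidant-high pairs, that is by 1 or more on the log2 scale, and 880 (6.08%) at least 2-fold lower. The median difference was -0.01. All high pairs lay above all low pairs in 5 genes (0.0346%), which were Aldh3a1, Gstm1, Adh7, Gstm2-ps1 and Ucp2, and below all low pairs in 0 genes. Gstm1 is a gene of the rule, and Gstm2-ps1 is a pseudogene of the Gstm family to which reads of its relatives may have been assigned.

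The wider antioxidant list held 98 genes of the table outside the 5, of which 89 passed the filter. At least 2-fold higher in high pairs were 30 (33.7%, beside 5.11% of all genes), and 1, Hmox2, was at least 2-fold lower. The median difference was 0.65 and 73 of the 89 were above 0. Among the 30 were Gstm2, Gstm3, Gstm4, Gstm5 and Gstp2, whose reads may be divided with Gstm1 and Gstp1, genes of the score. The difference of these is therefore not separate from the choice of pairs. Within the 5 sets of 8 cells that held pairs of both groups the median of the list was also 0.65. There 30 genes of the list were at least 2-fold higher, beside 9.37% of all genes in that reading. With each gene centred on the mean of its set, the median was 0.36 and 14 genes of the list were, beside 2.77% of all genes. With pairs chosen on daughter 1 alone and read in daughter 2, which share a mother but not a library, the median was 0.57, and in the reverse direction 0.48. No gene of the list passed the filter on low counts only through the high pairs. The other 9 genes of the list, Gstm6, Gstp3, Gstt1, Gstt2, Gpx3, Gpx7, Sod3, Akr1c12 and Abcc2, had too few counts to be compared.

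In glutathione synthesis 5 of 10 genes (50%, beside 5.11% of all genes) were at least 2-fold higher, with a median of 1.05. Gclc, the catalytic subunit of glutamate-cysteine ligase, had a lowest, median and highest value of 9.53, 10.40 and 11.45 in high pairs and of 5.22, 6.86 and 10.26 in low pairs, a difference of 2.93. Gclm, its modifier subunit, whose promoter is shown above, had 9.40, 10.67 and 11.29 against 6.70, 8.62 and 9.47, a difference of 2.197. In Gclm 11 of 12 high pairs lay above the highest low pair, and in Gclc 7 did. Slc1a4, a carrier of neutral amino acids, differed by 2.37, Oplah, which returns 5-oxoproline to glutamate, by 1.65, and Slc3a2, the partner chain of Slc7a11, by 1.16. Gss, which completes glutathione, differed by 0.19 with medians of 7.23 and 7.13, and Gsr, which reduces the oxidised form, by 0.93.

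Of 18 glutathione transferases tested, 9 (50%, beside 5.11% of all genes) were at least 2-fold higher and none lower by that much, with a median of 1.03. Gsta3 had 5.25, 7.37 and 8.62 in high pairs and 0.30, 4.80 and 7.70 in low pairs, a difference of 2.96. Gstm2 had 6.85, 8.20 and 8.75 against 4.34, 6.51 and 7.32, a difference of 1.70, with 10 of 12 high pairs above the highest low pair. The others were Gstm4 (2.32), Gstm3 (2.17), the microsomal Mgst1 (2.15), Gsta2 (1.85), Gstp2 (1.21), Gstm5 (1.13) and Gsta1 (1.09). Reads of Gsta1 and Gsta2, of Gstp1 and Gstp2 and of the Gstm genes, which lie side by side, may have been divided between near-identical copies, so that these do not count as separate evidence. Since Gstm1 and Gstp1 are genes of the score, the other Gstm genes and Gstp2 are not separate from the choice of pairs either. Gsta2 and Gsta1 differed by only 0.40 and 0.07 within the sets that held both groups.

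Enzymes that reduce quinones and carbonyls or break down heme gave 7 higher (41.2%, beside 5.11% of all genes) and 1 lower of 17, with a median of 0.72. Nqo1, the quinone reductase that serves as a standard NRF2 target, had 9.43, 10.74 and 12.50 in high pairs and 7.07, 8.32 and 10.40 in low pairs, a difference of 2.42. Cbr3 and Cbr1, neighbouring carbonyl reductases, differed by 2.69 and 2.68, and in Cbr1 10 of 12 high pairs lay above the highest low pair. Ephx1, the microsomal epoxide hydrolase, differed by 1.54. The inducible heme oxygenase Hmox1 differed by 1.28, but its mean CPM was 285.8 in high and 307.4 in low pairs, and within the sets that held both groups its difference was 0.06. The constitutive Hmox2 had 1.35, 5.41 and 6.46 in high and 4.45, 6.29 and 6.91 in low pairs, a difference of -1.26. Ptgr1 and Akr1b3, reductases of lipid aldehydes and sugars, differed by 1.24 and 1.21.

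Peroxide and thioredoxin enzymes moved less. Of 22 tested, 5 (22.7%, beside 5.11% of all genes) were at least 2-fold higher, with a median of 0.33. Srxn1, which repairs oxidised peroxiredoxins, differed by 1.89, Glrx by 1.54, Gpx2, an epithelial glutathione peroxidase, by 1.34, Txnrd1 by 1.29 and Prdx4 by 1.14. Widely used members showed smaller differences, with 0.30 for Prdx1, 0.44 for catalase (Cat), 0.63 for Sod1 and -0.37 for Gpx1. Of 7 genes that supply NADPH, Me1 (1.46) and Tkt (1.00) reached 2-fold (28.6%, beside 5.11% of all genes), while G6pdx differed by 0.67 and Pgd by 0.13. Of 5 exporters of conjugates Abcc3 alone reached 2-fold (20%, beside 5.11% of all genes), at 2.23.

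The regulators had a median difference of 0.25, beside 0.65 for the whole wider antioxidant list. Of 10 tested, Osgin1 alone reached 2-fold (10%, beside 5.11% of all genes), at 1.11, and its groups overlapped widely. Nfe2l2, which encodes NRF2, had 7.41, 8.26 and 8.77 in high pairs and 5.81, 7.41 and 9.02 in low pairs, a difference of 0.67. Its repressor Keap1 differed by 0.65 and Sqstm1, an adaptor that binds KEAP1, by -0.51. These are transcript levels, and NRF2 is governed mainly through its protein, which was not measured.

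**Figure D2:**
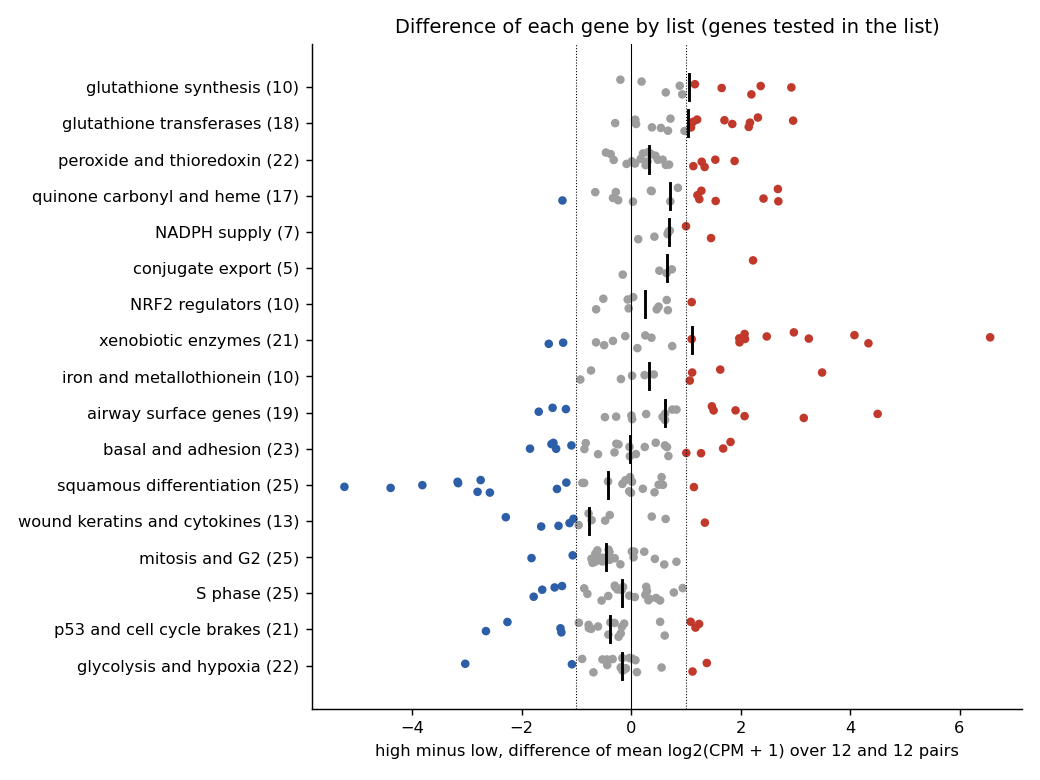
Difference of mean log2(CPM + 1), antioxidant-high minus antioxidant-low (x axis), for each tested gene of 17 lists (y axis, number tested in brackets), with red for 1 or more, blue for -1 or less and a black bar at the median. The medians of glutathione synthesis (1.05), glutathione transferases (1.03) and xenobiotic enzymes (1.11) lie to the right of 1, and 10 of 25 squamous genes lie at -1 or less.

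Enzymes that handle foreign compounds held the largest positive differences. Of 21 tested, 11 (52.4%, beside 5.11% of all genes) were at least 2-fold higher and 2 lower, with a median of 1.11. Among these 21, Cyp1b1 (1.98) and Fmo2 (0.26) passed the filter on low counts only through the high pairs, and Cyp2s1 (-0.33) only through the low pairs. Adh7, a retinol and ethanol dehydrogenase of surface epithelia, had a lowest, median and highest value of 6.12, 10.15 and 12.52 in high pairs and of 1.32, 3.47 and 5.18 in low pairs, a difference of 6.56, the largest among genes with a mean of 10 CPM in either group. Aldh3a1, an aldehyde dehydrogenase abundant in cornea, had 10.97, 11.78 and 12.78 in high pairs and 5.54, 7.62 and 9.60 in low pairs, a difference of 4.08. Neither gene overlapped between the groups. For Aldh3a1 the SD was 0.434 over the 12 high and 1.20 over the 12 low pairs. Ces1d, a carboxylesterase, differed by 4.34 with medians of 5.77 and 0.43. The glucuronosyltransferases Ugt1a6a, Ugt1a7c and Ugt1a6b differed by 3.25, 2.97 and 2.48, and they share exons, so their counts are not separate. Cyp2j6 (-1.51) and Aldh1a3 (-1.24), which makes retinoic acid, were lower.

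Within the sets that held both groups Adh7 differed by 6.22, Aldh3a1 by 4.46 and Nqo1 by 2.58. In sisters that had no part in the choice, Adh7 differed by 5.64 and 5.53, Aldh3a1 by 3.88 and 2.91 and Gclc by 2.42 and 2.64, the first value for pairs chosen on daughter 1. The direction was the same in each of these readings, although sisters share a mother and are not independent of each other.

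Of 10 iron-handling and metallothionein genes 4 (40%, beside 5.11% of all genes) were higher. Mt3, a metallothionein best known from brain, had 3.02, 8.45 and 9.69 in high pairs and 0.44, 4.49 and 7.27 in low pairs, a difference of 3.49. Mt2 differed by 1.63, Mt1 by 1.11 and the ferritin heavy chain Fth1 by 1.07. In Mt3 8 of 12 high pairs lay above the highest low pair. Within the sets that held both groups the difference of Mt3 was 1.80.

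The squamous list, whose members build the outer layers of stratified epithelia, held 10 of the 880 genes that were at least 2-fold lower in antioxidant-high pairs. Of its 25 tested genes these 10 (beside 6.08% of all genes) were lower and 1, Ppl, higher (1.15), and the median was -0.42. Of the 10, Sprr1b (-1.19) passed the filter only through the low pairs. Over the 24 pairs between the groups 11 of the 25 had an r with the score above 0, with a median r of -0.05, and between sisters 18 of 25 had an r above 0, so neither of these readings showed the list falling as the score rose. Serpinb2, a protease inhibitor of stressed keratinocytes, had 0.09, 0.72 and 4.12 in high pairs and 0.70, 7.63 and 9.70 in low pairs, a difference of -5.24. Sbsn, a secreted protein of suprabasal cells, had 0.00, 0.33 and 2.77 against 1.63, 5.26 and 8.07, a difference of -4.40, and every low pair lay above the median of the high pairs. Cnfn (-3.82), Tgm1 (-2.75), which crosslinks the cornified envelope, Dmkn (-2.58) and the small proline-rich genes Sprr2a1 (-3.17), Sprr2a2 (-3.16) and Sprr2a3 (-2.81) were lower too. The Sprr2a genes overlap and share sequence, so they count as 1 signal. With spike-in scaling and pairs chosen again, the median of this list was 0.00, against -0.57 with spike-in scaling of the same pairs.

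Outside the lists, Plet1, a surface protein of epithelial progenitors, had 0.15, 0.58 and 5.69 in high and 3.24, 7.19 and 9.96 in low pairs, a difference of -5.08. The filamin Flnc differed by -4.14, the tight junction gene Cldn6 by -3.98, Ndn, which passed the filter only through the low pairs and was at 0 in 20 of 24 high cells, by -3.79, the activin inhibitor Fst by -3.68, the small heat shock gene Cryab by -3.55, Serpinb10 by -3.32 and the protease Tmprss11e by -3.23. On the other side stood Epas1, which encodes a hypoxia-inducible factor (3.38), Crtc1 (3.33), Sema6d (3.29), Ggt7 (3.27), Lzts1 (3.26), Plpp3 (3.17) and the chemokine Cx3cl1 (3.16). Ucp2, an inner mitochondrial membrane carrier, had 7.32 to 9.34 in high and 4.99 to 7.31 in low pairs.

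Of 13 wound keratins and cytokines 5 were lower (beside 6.08% of all genes), with Krt16 at -2.29, and 1, Ccl20 (1.35), which passed the filter only through the high pairs, was higher. The median of this list was -0.78 as reported, 0.25 with pairs chosen on daughter 1 and read in daughter 2, and -1.37 in the reverse, so its direction changed with the sister read. Cdkn1a, a brake on the cell cycle, had 2.57, 5.50 and 9.38 in high and 5.53, 7.76 and 11.00 in low pairs, a difference of -2.26. The cell death gene Pmaip1 differed by -2.65. Of the 21 genes in the list of these 2, 4 were at least 2-fold lower (beside 6.08% of all genes). Another 3, Gdf15, Gadd45a and Sesn1, were at least 2-fold higher (14.3%, beside 5.11% of all genes). In a mixed list of 23 basal cell and adhesion genes 4 were higher and 5 lower, beside 5.11% and 6.08% of all genes. The median of this mixed list was -0.03, and it was 0.31 when read in daughter 2 and -0.53 when read in daughter 1. The adhesion molecule Icam1 (-1.85), the laminin chain Lama3 (-1.42) and Col17a1 (-1.09) were lower, while other genes of the basal attachment differed little, with Lamb3 at 0.45, Itgb4 at 0.09 and Itga3 at -0.02. The transcription factors Otx2 (1.82) and Pax6 (1.01) and the growth factor receptor Ngfr (1.68) were higher. Of 22 glycolysis and hypoxia genes 2 were higher and 2 lower, beside 5.11% and 6.08% of all genes, with a median of -0.16. The lowest difference in that list was that of Slc16a3, which exports lactate, at -3.03.

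The HBC markers were present in both groups. Krt5 had medians of 11.54 and 11.29 and a difference of 0.25, Trp63 medians of 7.61 and 7.10 and a difference of 0.68, and Krt14 medians of 11.50 and 11.92 and a difference of -0.85. Icam1 had a median of 2.99 in high and 6.29 in low pairs. Krt23, which the study names for these cells, was higher by 2.82 and Sox9 lower, by -1.94. In the mitosis list of 25 genes 0 were at least 2-fold higher and 2, Cenpe (-1.82) and Ttk (-1.07), were lower. Over all genes 5.11% were higher and 6.08% lower by that much. The median of the mitosis list was -0.45 and 7 of its genes were above 0, among them Mki67 at 0.60. Over the 24 pairs between the groups 0 of these 25 genes had an r with the score above 0 (median -0.26), beside 44.5% of all genes. Of 25 S phase genes 1 had, and 0 were at least 2-fold higher and 4 lower, beside 5.11% and 6.08% of all genes. Within the sets that held both groups the median difference of the mitosis list was -0.0034, and between sisters 21 of its 25 genes had an r with the score above 0. Of 80 cytosolic ribosomal, 13 mitochondrial and 83 nuclear oxidative phosphorylation genes none reached 2-fold, with medians of 0.08, 0.25 and 0.17 that all turned below 0 with spike-in scaling of the same pairs, where the median of all genes moved to -0.21.

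**Figure D3:**
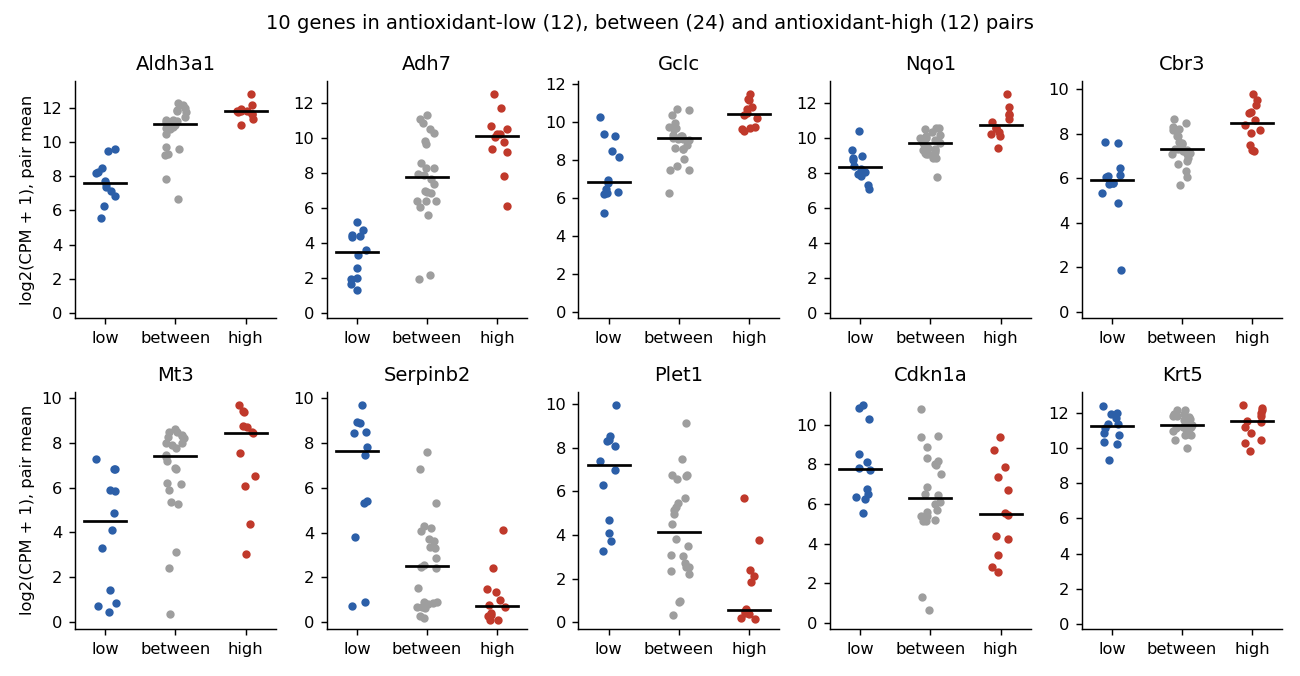
Pair means of log2(CPM + 1) (y axis) of 10 genes in 12 antioxidant-low, 24 intermediate and 12 antioxidant-high pairs (x axis, points are pairs, bars medians). Aldh3a1 and Adh7 do not overlap between low and high pairs, Serpinb2 and Plet1 run the other way with medians of 7.63 and 7.19 in low and 0.72 and 0.58 in high pairs, and Krt5 is alike in the groups.

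One antioxidant-low pair stood apart. The summed CPM of 9 sustentacular markers, genes of the supporting cells of the OE, ranged from 0 to 133.0 in high pairs with a median of 15.7. In low pairs the median was 0.782 and the maximum 2255. Of the 9 genes, 5 were at 0 in all high cells and 7 were at 0 in all low cells. In the low pair with that maximum, the log2(CPM + 1) was 11.84 for Cbr2, 7.14 for the cytochrome Cyp2a5, 8.72 for Cyp2f2, 6.54 for Ugt2a1, 8.04 for the water channel Aqp4 and 10.20 for Lypd2, while Slc7a11 was at 4.29. These values are means of 2 sisters that differed widely in some of these genes. Daughter 1 minus daughter 2 was -11.16 for Cyp2a5, -11.20 for Ugt2a1 and -5.08 for Aqp4, but -0.56 for Cbr2. In the basal and wound keratins it was 7.34 for Krt14, 3.81 for Krt5 and 9.49 for Krt6a. By score the pair was among the lowest although its Cbr2 was near the top. Without it, the difference was 1.28 for Cbr2, 5.04 for Aqp4 (4.50 with it), 3.72 for Lypd2 (3.15) and 2.75 for Cyp2f2 (2.07), and 719 genes were at least 2-fold higher and 1085 lower. The summed markers of neurons, microvillous cells, globose basal cells, immune cells and stromal or endothelial cells had medians of at most 52.2 CPM in either group, and those of Bowman's gland and respiratory cells 5.21 in high and 33.2 in low pairs. Their part in the differences was not tested.

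The 24 pairs between the groups had no part in the comparison, and the score, confined there to 8.87 to 9.71, could be set beside other genes. Over these 24 pairs the Pearson r with the score was 0.65 for Gclm, 0.64 for Aldh3a1, 0.63 for Gsta3, 0.63 for Nqo1, 0.60 for Adh7 and 0.52 for Nfe2l2. It was -0.49 for Prdx4 and -0.47 for Gstp2, both at least 2-fold higher in high pairs, and of the genes of the score itself Gstp1 had -0.43 and Cbr2 -0.24. Of the 89 list genes 60 had an r above 0, beside 44.5% of all genes, and 7 had an r of 0.5 or more, beside 0.602% of all genes. Among the 7 were Gstm2 (0.58) and Gstm3 (0.56), whose reads may be divided with Gstm1, a gene of the score. Their r is therefore not separate from the score. The highest r outside the rule was that of Tst, a mitochondrial sulfur transferase, at 0.69, though Tst differed by only 0.82 between the groups. Gas6 had an r of 0.63 and a difference of -0.24. The lowest r, -0.75 for the calcium-binding Calu and -0.71 for Gatc, were as far from 0 as the highest, so that a single r of this size does not set a gene apart. Each point is the mean of 2 libraries, and depth and base composition are shared by the genes of a pair.

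Sisters gave another view that owes nothing to the ranking of pairs. Over the 48 pairs, the difference between daughters 1 and 2 in the score was set beside the same difference in each gene. The Pearson r was 0.61 for Gpx2, 0.58 for Aldh3a1, 0.57 for Mt3, 0.55 for Gsta3, 0.43 for Gclc and 0.42 for Nqo1, and -0.49 for Cdkn1a and -0.40 for Plet1. Without the 2 pairs of largest sister difference these were 0.30, 0.48, 0.46, 0.46, 0.38 and 0.40, and -0.22 and -0.26. In Cbr3 the r was 0.48 with those pairs and 0.11 without them, so it rested on them, and Adh7 had 0.31 and 0.03. Gclm had 0.21 and 0.08. Some list genes had a negative r with those pairs, among them Txnrd1 (-0.34, and 0.02 without them), Gss (-0.28 and 0.11) and Sod2 (-0.28 and -0.34). Slc7a11, a gene of the score set beside the other 4, had 0.18 and -0.18. Of the 89 list genes 61 had a sister r above 0, beside 51.9% of all genes, and the median r was 0.07, beside 0.01 over all genes.

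**Figure D4:**
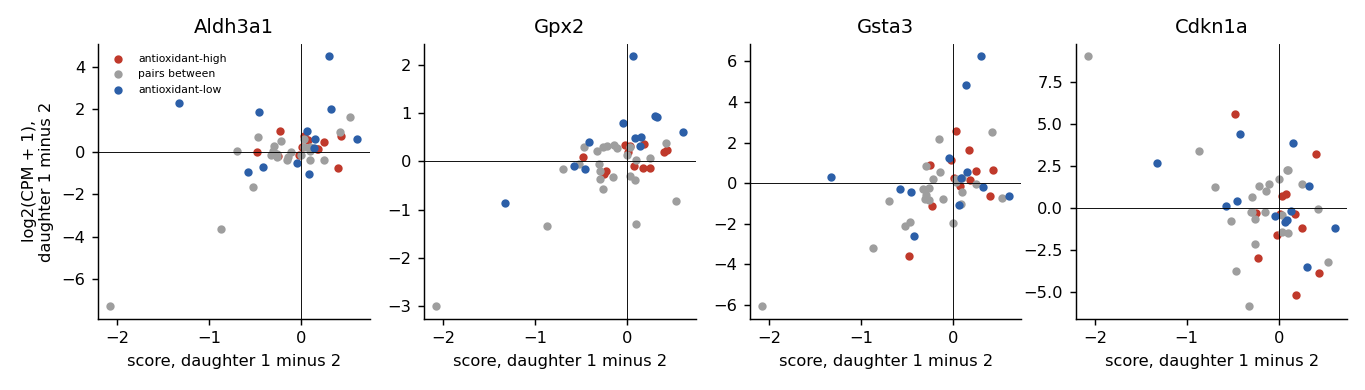
Difference between daughter 1 and daughter 2 in log2(CPM + 1) of 4 genes (y axis) against the same difference in the score (x axis), one point per pair, coloured by group. Pearson r over the 48 pairs is 0.58 for Aldh3a1, 0.61 for Gpx2, 0.55 for Gsta3 and -0.49 for Cdkn1a, and 1 pair with a score difference beyond -2 lies at the far left.

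The pairs were not spread evenly over the deposited sets. Each of 12 sets holds 8 cells, or 4 pairs, by the names of the files, and what a set stands for is not stated. High pairs numbered 4 in sets 1 to 6 and 8 in sets 7 to 12, low pairs 10 and 2, and the mean score of a set ran from 8.31 to 9.74. Counts on genes ran from 29454150 to 44849003 per cell. Counts on genes per ERCC count, a measure of RNA per cell, had a median of 28.4 in high pairs (18.4 to 43.3) and 36.0 in low pairs (23.5 to 50.7), with overlap. Genes detected had medians of 12818 and 12914. The part of sets and RNA content in the differences was not tested beyond the values within sets and with spike-in scaling given here.

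**Figure D5:**
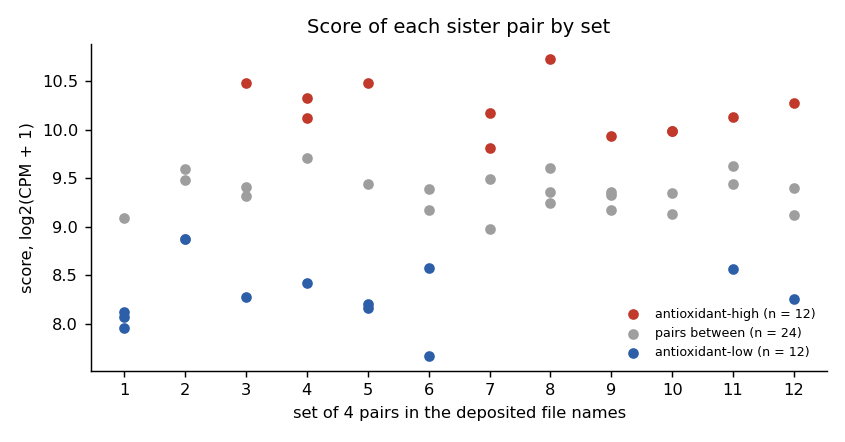
Score of each pair, mean log2(CPM + 1) of the 5 genes (y axis), by set of 4 pairs in the deposited file names (x axis), coloured by group. Low pairs lie mostly in sets 1 to 6 (10 of 12) and high pairs mostly in sets 7 to 12 (8 of 12), and 5 sets hold both.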

How the data were processed

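Per the study's methods, Trimmomatic 0.39 was used for trimming, STAR 2.7.11a for alignment of the pairs to GRCm38 (Ensembl release 100, ERCC added), and StringTie 2.2.1 for the counts the authors deposited. The deposited values are integer counts per gene and cell, not normalized, and TPM per gene and cell, scaled by the authors over genes and ERCC together. No unique molecular identifiers were used. All columns of the counts were used, and 0 were left out. No deposited column holds a comparison.

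From the counts, CPM was computed over the 55487 genes without the 92 ERCC rows, log2(CPM + 1) was averaged over both sisters, and genes with 10 or more counts in 10% of cells were kept. Groups were 12 and 12 pairs by score, and a gene was called at a difference of 1 on the log2 scale. The SD given is that over pairs. The TPM served as an alternative. Spike-in size factors were medians of ratios, taken over 22 ERCC transcripts present in all cells. Gene coordinates on GRCm38 are those the authors deposited with the values of each cell, matched by gene ID. The functions were checked on simulated counts. Python 3.11.15 with numpy 2.4.6, pandas 2.3.3, scipy 1.17.1 and matplotlib 3.10.9 was used.

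The members and the gene lists were chosen with earlier results of these data known, so they are not independent evidence. Genes were named by rule: the 5 of the score, list genes at 2-fold or more, up to 4 of each other list and those the study names, the 15 largest differences each way among genes with a mean of 10 CPM in either group, and the 10 highest and 10 lowest r over the 24 pairs between. Any others, including the small or negative differences quoted for list members, Ucp2, Gstm2-ps1 and further members of the other lists, were picked with their values in view. A few listed symbols, among them Ddit3 and Aldoa, were not matched to a single row and were not analysed here. Some genes that met the rule are not reported here.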

Additional observations from a re-analysis of the deposited data

How the results depend on the processing

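No paired analysis was possible because the high and low pairs share no numbering, and no test between them was made to which a block could be added. Differences between sisters within a pair are in the report. Beside the reported values, 20 alternatives and 24 omissions of 1 pair were computed. As reported, 739 genes were at least 2-fold higher and 880 lower. With spike-in factors these were 1345 and 301 with pairs chosen again, and 447 and 1515 for the same pairs. A pseudocount of 0.1 gave 1444 and 1847, and of 10 gave 159 and 147. With 6 pairs in each group they were 1307 and 1479, and with 24 they were 225 and 309. Choosing on daughter 1 and reading in daughter 2 gave 1125 and 1412, and the reverse gave 1514 lower. Differences of medians gave 1411 lower, centring on sets 401 higher, and the sets with both groups, an alternative added after seeing the data, 1355 and 1624. Fewer cells or pairs enter several of these. The cause of the other shifts was not tested. Omitting each pair gave 689 to 867 higher and 810 to 1085 lower.

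The median of the wider antioxidant list was 0.65 as reported, 0.30 with spike-in factors for the same pairs, and 0.56 to 0.70 when each pair was omitted. Over the 20 alternatives it ran from 0.30 to 0.83. With spike-in factors the median of all genes was 0.14 with pairs chosen again, of which 9 of 12 in each group were the same, and -0.21 for the same pairs. Of 145 named genes 109 were at 2-fold or more, and 7 of these 109 changed sign in some alternative. Sign changes of named genes under 2-fold were not counted. With spike-in factors and pairs chosen again, Atf3 was at 0.40, Car9 at -0.19, Cxcl1 at 0.27 and Ttk at 0.0053. With 6 pairs in each group, Btg2 was at 0.087, Car9 at -0.58 and Cxcl1 at 0.19, and with 24 Car9 was at -0.24. Read in daughter 2, Ereg was at 0.37 and Nupr1 at -0.085. None of the 109 changed sign when 1 pair was omitted. Without replicates of mouse or culture no difference can be told apart from one between cultures.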
